A study of Homo sapiens with 18 samples.

Results

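Of the 58302 genes in the expression table, 10 are considered here: the E2F transcription factors E2F1, E2F2, E2F3, E2F7 and E2F8, the pocket proteins RB1, RBL1 and RBL2, and the mitotic transcription factors MYBL2 and FOXM1. They were chosen by gene symbol, and each has 1 row in the table. RNA sequencing was performed on TPC1, an established line of papillary thyroid carcinoma cells, and on D11, a single Dicer1 (+/-) clone derived from TPC1 with CRISPR-Cas9. Each line was left non-transfected (NT), or received 5 nM of either a negative control siRNA (NC) or an siRNA against Dicer1 (siDicer), and RNA was taken on day 4, giving 6 groups of 3 libraries. For each line, NT and NC were joined as 6 control libraries. Values are normalised read counts, that is reads scaled to 20 M aligned reads per library, and the libraries had 11.3 to 23.2 M reads. The study's methods state in general that experiments were repeated independently, but nothing in the labels says that these replicates are separate cultures, so p-values measure the spread between these libraries, which may be technical.

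DICER1, the targeted gene, was at 1582, 1510 and 1397 in TPC1 NT, at 2492, 1901 and 2366 in TPC1 NC, then at 255, 395 and 246 in TPC1 siDicer. In D11 it was at 655, 1157 and 923 in NT, at 1536, 1433 and 1407 in NC, then at 297, 451 and 277 in siDicer. The siDicer libraries lay below every control library of their line, at 13.1% to 21.1% of the control mean in TPC1 and 23.4% to 38.1% in D11, and replicate 2 kept the most DICER1 in both lines. In every library the thyroid transcription factor gene PAX8 was at 7361 or more and the epithelial keratin gene KRT8 at 5715 or more. The thyroid genes TSHR, NKX2-1 and SLC5A5 were at 2 or less, and the epithelial genes EPCAM, CDH1 and KRT19 at 8 or less. Of 8 markers of other cell types, COL1A1 reached 134 and CD14 reached 24, PECAM1 reached 12, PTPRC, VWF and CHGA were at 9 or less, and DCN and CALCA were at 0 in all 18 libraries. The summed level of these 8 markers was 53 to 132 in control libraries and 108 to 145 in siDicer libraries, and its part in the results was not tested.

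E2F proteins bind DNA with a DP partner and control the genes of DNA replication. E2F1, E2F2 and E2F3 activate these genes and are held inactive by the retinoblastoma protein RB1 until cyclin-dependent kinases phosphorylate it, whereas E2F7 and E2F8 repress the same genes without a DP partner. The relatives p107 (RBL1) and p130 (RBL2) join E2F4 or E2F5 and the MuvB core in the DREAM complex, which silences cell cycle genes in resting cells. In dividing cells MuvB instead binds B-MYB (MYBL2) and then FOXM1, which activate the genes of mitosis. Several of these regulators are themselves E2F targets. Dicer cuts precursor hairpins into mature miRNAs, which bind messenger RNAs mainly through their seed, bases 2 to 8.

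By GENCODE release 44 on GRCh38, the E2F genes lie at chr20:33675477-33686385 (E2F1), chr1:23506438-23531233 (E2F2), chr6:20401879-20493714 (E2F3), chr12:77021248-77065569 (E2F7) and chr11:19224063-19241620 (E2F8). The pocket protein genes lie at chr13:48303744-48599436 (RB1), chr20:36996349-37095997 (RBL1) and chr16:53433977-53491648 (RBL2). MYBL2 lies at chr20:43667019-43716495 and FOXM1 at chr12:2857680-2877174. All of these spans are whole genes, and values count reads over their exons.

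The promoters of the members are shown first because several of these regulators are themselves E2F targets, and an E2F motif is the element that E2F proteins bind. RefSeq windows on GRCh38.p14, from 250 bases before to 50 after a start, were found for 8 of the 10 members, 10 windows in all; E2F8 and FOXM1 had no entry. The search took every word of 7 letters that starts with TT, has C or G at the third and the fourth place, goes on with CG and ends in C or G (TTGGCGC is one of them), on both strands. At least 1 of them was found in 6 of the 10 member windows and in 23.7% of all 35116 windows. The 120 bases that end just before the start are printed for the 5 members with a match there, 5′ to 3′ on the gene's strand, with matches in capitals.
E2F1, chr20:33686386-33686505, minus strand: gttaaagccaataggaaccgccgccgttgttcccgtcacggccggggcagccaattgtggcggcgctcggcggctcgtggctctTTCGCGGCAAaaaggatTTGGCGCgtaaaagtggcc
E2F2, chr1:23531234-23531353, minus strand: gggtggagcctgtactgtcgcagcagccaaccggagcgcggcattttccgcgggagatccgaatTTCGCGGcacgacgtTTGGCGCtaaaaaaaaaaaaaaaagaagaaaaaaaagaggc
E2F3, chr6:20401759-20401878, plus strand: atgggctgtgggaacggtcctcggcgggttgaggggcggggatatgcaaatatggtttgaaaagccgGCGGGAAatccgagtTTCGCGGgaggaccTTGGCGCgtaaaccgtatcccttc
RBL1, chr20:37095998-37096117, minus strand: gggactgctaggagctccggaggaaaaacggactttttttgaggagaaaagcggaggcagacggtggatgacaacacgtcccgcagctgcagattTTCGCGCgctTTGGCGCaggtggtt
MYBL2, chr20:43666994-43667113, plus strand: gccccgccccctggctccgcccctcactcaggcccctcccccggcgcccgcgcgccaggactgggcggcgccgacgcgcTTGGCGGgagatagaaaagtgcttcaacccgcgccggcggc
E2F1 and E2F3 each had 3 matches, of which the first pair in E2F1 overlap on opposite strands, E2F2 and RBL1 had 2, and MYBL2 had 1. Of all windows, 11.4% held a match in these 120 bases and 0.12% held 3 or more. E2F7 had 2 matches in its window but none in these 120 bases, and no match was found in either RBL2 window. Both RBL2 windows lie within the gene span given above, so the sequence before that span was not searched. The only RB1 window lies at an internal start and held none either. The CHR words TTTGAA and TTCGAA, the kind of element that MuvB reads, were found in 1 window each of E2F3 and RBL2 and in 16.4% of all windows. A match describes the sequence only; binding was not measured.

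Because Dicer makes the miRNAs, the 3′ UTRs of the members (MANE Select transcripts of GENCODE release 44, GRCh38) were also searched for the 7 bases that pair with the seeds of 5 miRNAs. The mature sequences, credited to RefSeq, are printed with the seed in capitals.
let-7a-5p: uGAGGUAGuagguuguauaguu
miR-17-5p: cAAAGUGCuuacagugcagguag
miR-16-5p: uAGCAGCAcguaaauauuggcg
miR-26a-5p: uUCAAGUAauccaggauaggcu
miR-34a-5p: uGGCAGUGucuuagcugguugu
The miR-17-5p match GCACTTT was present in 6 of the 10 members, E2F1, E2F2, E2F3, RB1, RBL1 and RBL2, and in 21.5% of 18780 3′ UTRs. The let-7a-5p match CTACCTC was present only in E2F2, with 2 sites, and in 9.85% of all. The miR-34a-5p match was present only in E2F3, the miR-16-5p match in E2F3 and E2F7, and the miR-26a-5p match in E2F7 and RB1. Of all 3′ UTRs, 15.7% held the miR-34a-5p match, 21.6% the miR-16-5p match and 11.8% the miR-26a-5p match. E2F2 also had 3 miR-17-5p sites, which are not printed. E2F8, MYBL2 and FOXM1 had none of the 5. The sites of E2F2 for let-7a-5p and those of E2F7 are shown as the members that later differ most between siDicer and control in each direction among those with sites, with the pairing bases in capitals.
E2F2 and let-7a-5p, site 1, chr1:23509826-23509854, minus strand: tgcccccgactCTACCTCctcacagacag
E2F2 and let-7a-5p, site 2, chr1:23509551-23509579, minus strand: gaaaggccctgCTACCTCcttttgagggg
E2F7 and miR-16-5p, site 1, chr12:77023240-77023268, minus strand: agcagcctaacTGCTGCTtctcaaataac
E2F7 and miR-16-5p, site 2, chr12:77021418-77021446, minus strand: attaattttatTGCTGCTtactgcttttg
E2F7 and miR-26a-5p, chr12:77021562-77021590, minus strand: tataacttttaTACTTGAatctacctacc
miRNAs were not measured in these libraries, and longer 3′ UTRs hold more matches (the 3′ UTR is 3442 bases in E2F2, 2764 in E2F7 and 395 in MYBL2, against a median of 1089 over all).

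Levels between genes can be compared only per length, here as normalised read count per kilobase of exon. In the 6 TPC1 control libraries MYBL2 was the highest member at 1254 ± 235 per kilobase (SD, n = 6), followed by FOXM1 at 715 ± 70.7. E2F1 at 306 ± 55.2, E2F7 at 282 ± 24.8, E2F3 at 274 ± 38.8 and RB1 at 265 ± 16.8 lay within their spread of each other. RBL1 at 136 ± 21.7 and RBL2 at 132 ± 34.8 came next, then E2F8 at 105 ± 19.0, and E2F2 was lowest at 67.8 ± 11.3. D11 control libraries gave the same order, from MYBL2 at 1247 ± 93.3 to E2F2 at 78.4 ± 11.6 per kilobase (SD, n = 6). Exons of E2F8, RBL1, RBL2 and FOXM1 share bases with a gene on the opposite strand (CSRP3-AS1 for E2F8, AKTIP for RBL2, ITFG2 for FOXM1). The study names a stranded library kit, but whether reads were counted by strand is not given in the sources used here. Reads in the shared bases may therefore affect the values of these members.

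**Figure D1:**
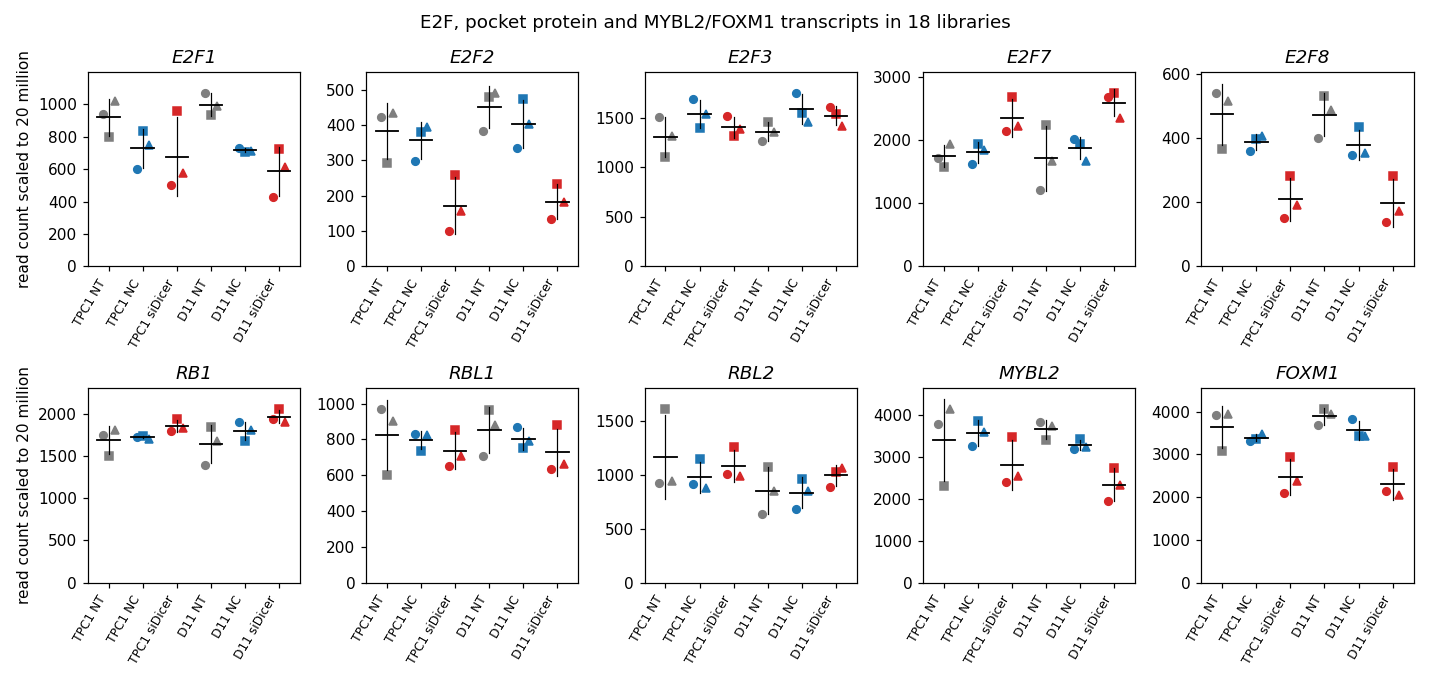
Normalised read count (reads scaled to 20 M, linear axis from 0) of each member in each of the 18 libraries. Circles, squares and triangles are replicates 1, 2 and 3, horizontal bars are group means and vertical lines ± SD (n = 3). E2F2 and E2F8 in siDicer, at 99 to 260 and 138 to 284, lie below every control library of the same line, and E2F7 in siDicer, at 2139 to 2751, lies above every control library of the same line.

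The siDicer libraries of each line were then compared with its 6 control libraries, to ask which of these regulators moved when DICER1 was knocked down. In both lines E2F2, E2F8 and FOXM1 fell and E2F7 rose. In D11, MYBL2 fell as well, and so did E2F1 against the joined controls but not against NC alone. Several of the TPC1 results also depended on which controls were used, as given below for each gene. RB1, RBL1, RBL2 and E2F3 did not pass the test in either line. A gene is said to rise or fall where limma gave an adjusted p under 0.05 over all genes tested, and is called where the fold change was also at least 1.5.

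By this rule, 2 of the 10 members were called in TPC1, both lower, beside 4.16% of 18475 genes tested called lower and 3.22% called higher. In D11, 3 of 10 were called, all lower, beside 6.75% of 18413 genes called lower and 5.26% called higher. By adjusted p alone, 3 members fell and 1 rose in TPC1, against 7.94% and 5.88% of genes, and 5 fell and 1 rose in D11, against 12.8% and 9.38%. The median log2 change of the members was -0.22 in TPC1 and -0.38 in D11, and that of all genes tested was -0.04 in both. With TMM scaling 58.4% of the calls of all genes in TPC1 were higher, in place of 43.6%, and the split moved from 43.8% to 52.1% in D11, but the same scaling moved the median of all genes by less than 0.1. In bulk RNA, fewer cells that express a gene and less of its RNA per cell cannot be told apart.

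Among the activators, E2F2 was at 422, 292 and 435 in TPC1 NT, 298, 381 and 394 in NC, then 99, 260 and 158 in siDicer. The siDicer libraries were all below the lowest control library. E2F2 fell by 1.19 on the log2 scale (SE 0.25, limma adjusted p = 0.0128), to 43.8% of control. In D11 it was at 383, 481 and 492 in NT, 336, 473 and 403 in NC, then 135, 233 and 181 in siDicer, again without overlap, and fell by 1.24 (SE 0.18, limma adjusted p = 0.000649). The TPC1 call was lost against NT alone (log2 change -1.23, limma adjusted p = 0.0626), against NC alone (-1.15, 0.0586), without siDicer replicate 1 (-0.85, 0.0650) and without siDicer replicate 3 (-1.18, 0.0700). In D11 the call held in every alternative run.

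E2F1, the first activator cloned as an RB1 partner, was at 939, 795 and 1022 in TPC1 NT, 598, 834 and 749 in NC, then 502, 957 and 573 in siDicer. Replicates 1 and 3 of siDicer lay below all controls and replicate 2 lay within them. The log2 change was -0.32 (95% confidence interval -0.77 to 0.14, limma adjusted p = 0.333), and single libraries moved it both ways. It was -0.60 (adjusted p = 0.0431) without siDicer replicate 2, -0.13 (0.796) without siDicer replicate 1, -0.23 (0.656) without siDicer replicate 3 and -0.15 (0.735) against NC alone. In D11, E2F1 was at 1071, 933 and 989 in NT, 731, 706 and 712 in NC, then 426, 724 and 612 in siDicer. It fell by 0.56 on the log2 scale (SE 0.18, limma adjusted p = 0.0437), and the groups overlapped through siDicer replicate 2. Against NT alone the log2 change in D11 was -0.79 (adjusted p = 0.0113), and against NC alone it was -0.32 (adjusted p = 0.237), and D11 NC lay below D11 NT in every library. The adjusted p also missed 0.05 without siDicer replicate 1 (0.230) or replicate 3 (0.102), without any 1 NT library (0.0603 to 0.0833), with TMM (0.0667) or RLE scaling (0.0648) and with no filter on low values (0.0609).

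E2F3, the activator with the smallest change, was at 1508, 1103 and 1310 in TPC1 NT, 1682, 1395 and 1533 in NC, then 1518, 1309 and 1385 in siDicer. In D11 it was at 1259, 1456 and 1357, at 1750, 1549 and 1458, and at 1602, 1534 and 1418 in the same order. The siDicer libraries lay inside the control range in both lines. Its log2 change was -0.01 in TPC1 (95% confidence interval -0.28 to 0.26) and 0.05 in D11 (-0.18 to 0.28), so that a change of 1.5-fold lies outside both intervals, and its sign in TPC1 turned with TMM and with RLE scaling (0.0565 and 0.0363).

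The atypical repressors E2F7 and E2F8 moved in opposite directions. E2F8 was at 543, 366 and 518 in TPC1 NT, 360, 399 and 409 in NC, then 152, 284 and 192 in siDicer. D11 values were 402, 532 and 490 in NT, 349, 435 and 355 in NC, then 138, 284 and 174 in siDicer. No siDicer library reached the lowest control library in either line. E2F8 fell by 1.07 on the log2 scale in TPC1 (SE 0.20, limma adjusted p = 0.00748) and by 1.15 in D11 (SE 0.21, adjusted p = 0.00241), to 47.5% and 45.1% of control. The TPC1 call was just lost without siDicer replicate 1 (-0.87, adjusted p = 0.0508) or replicate 3 (-1.03, 0.0516), and the D11 call held in every alternative run.

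E2F7 was at 1719, 1582 and 1936 in TPC1 NT, 1627, 1945 and 1842 in NC, then 2139, 2689 and 2222 in siDicer. In D11 the values were 1211, 2247 and 1672 in NT, 2014, 1945 and 1676 in NC, then 2677, 2751 and 2357 in siDicer. E2F7 was the member whose siDicer libraries lay above every control library in both lines. It rose by 0.40 on the log2 scale in TPC1 (SE 0.10, limma adjusted p = 0.0253), a 1.32-fold increase, and by 0.56 in D11 (SE 0.16, adjusted p = 0.0258), a 1.47-fold increase. Both are under 1.5-fold. The D11 value passed it with TMM or RLE scaling (0.60 with each) and reached 0.63 over libraries left out. E2F7 was called in D11 in 6 alternative runs, which include the run with no fold minimum. The adjusted p missed 0.05 when any 1 siDicer library was left out, at 0.0617 to 0.0847 in TPC1 and 0.0594 to 0.0924 in D11. It also missed 0.05 in TPC1 against NT alone (0.0774), against NC alone (0.0723), without NT replicate 1 (0.0529) and in a fit of all 18 libraries (0.0584).

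None of the 3 pocket protein genes passed the test in either line. RB1 was at 1757, 1499 and 1812 in TPC1 NT, 1731, 1735 and 1710 in NC, then 1798, 1939 and 1835 in siDicer, a log2 change of 0.12 (95% confidence interval -0.05 to 0.30, limma adjusted p = 0.326). In D11 RB1 was at 1396, 1842 and 1683 in NT, 1906, 1686 and 1812 in NC, then 1943, 2061 and 1907 in siDicer. The D11 siDicer libraries were all above the highest control library, by 1 unit at the nearest, but the change of 0.20 (-0.02 to 0.43) did not pass the test (adjusted p = 0.186). In this comparison 11% of genes were higher without overlap between groups and 14.1% lower.

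RBL1, which encodes p107, was at 970, 602 and 902 in TPC1 NT, 829, 736 and 825 in NC, then 650, 853 and 709 in siDicer. D11 values were 709, 962 and 882 in NT, 871, 751 and 790 in NC, then 636, 880 and 665 in siDicer. In both lines siDicer replicate 2 was well inside the control range while replicates 1 and 3 were at 76.9% to 87.5% of the control mean. The log2 change was -0.13 in TPC1 (95% confidence interval -0.45 to 0.19) and -0.19 in D11 (-0.48 to 0.09), and limma gave adjusted p = 0.597 and 0.312. In TPC1 it ran from -0.0435 (without siDicer replicate 1) to -0.24 (without siDicer replicate 2) over single libraries left out, and was -0.37 (adjusted p = 0.0201) with all replicate 2 libraries left out, a choice made after seeing the data. In D11 it ran from -0.11 (without siDicer replicate 1) to -0.34 (without siDicer replicate 2).

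RBL2, which encodes p130, the pocket protein of resting cells, was at 928, 1612 and 947 in TPC1 NT, 912, 1143 and 874 in NC, then 1004, 1256 and 989 in siDicer. Replicate 2 was the highest of its group in all 3 TPC1 treatments. In D11 it was at 637, 1070 and 853 in NT, 680, 964 and 854 in NC, then 887, 1028 and 1068 in siDicer. The log2 change was 0.04 in TPC1 (95% confidence interval -0.35 to 0.44, limma adjusted p = 0.90) and 0.26 in D11 (-0.08 to 0.59, adjusted p = 0.260). The TPC1 sign turned against NT alone (-0.0613).

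FOXM1, an activator of mitotic genes, was at 3916, 3072 and 3948 in TPC1 NT, 3324, 3362 and 3486 in NC, then 2102, 2930 and 2368 in siDicer. In D11 it was at 3678, 4063 and 3934 in NT, 3828, 3419 and 3435 in NC, then 2147, 2705 and 2046 in siDicer. Control and siDicer libraries did not overlap in either line. FOXM1 fell by 0.52 on the log2 scale in TPC1 (SE 0.12, limma adjusted p = 0.0153), to 69.7% of control, and by 0.70 in D11 (SE 0.10, adjusted p = 0.000819), to 61.4%. The TPC1 change is under 1.5-fold. Without siDicer replicate 2 it was -0.65 and called (adjusted p = 0.00380), whereas the adjusted p missed 0.05 without siDicer replicate 1 (log2 change -0.41, 0.0977), without siDicer replicate 3 (-0.50, 0.0869) and against NT alone (-0.57, 0.0625).

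MYBL2 was at 3773, 2294 and 4135 in TPC1 NT, 3249, 3856 and 3583 in NC, then 2400, 3476 and 2529 in siDicer. The groups overlapped, through NT replicate 2 at 2294 and siDicer replicate 2 at 3476. The log2 change was -0.31 (95% confidence interval -0.70 to 0.09, limma adjusted p = 0.274), and was -0.42 without NT replicate 2 (adjusted p = 0.0373), -0.47 without siDicer replicate 2 (0.108) and -0.21 without siDicer replicate 1 (0.623). In D11, MYBL2 was at 3820, 3399 and 3721 in NT, 3187, 3426 and 3218 in NC, then 1948, 2736 and 2323 in siDicer. These groups did not overlap, and MYBL2 fell by 0.58 (SE 0.11, adjusted p = 0.00326), a 1.49-fold decrease. Its adjusted p stayed under 0.05 in every alternative run. MYBL2 was called in 6 of these runs, which include no fold minimum, NT alone (-0.65) and siDicer replicate 2 left out (-0.70).

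**Figure D2:**
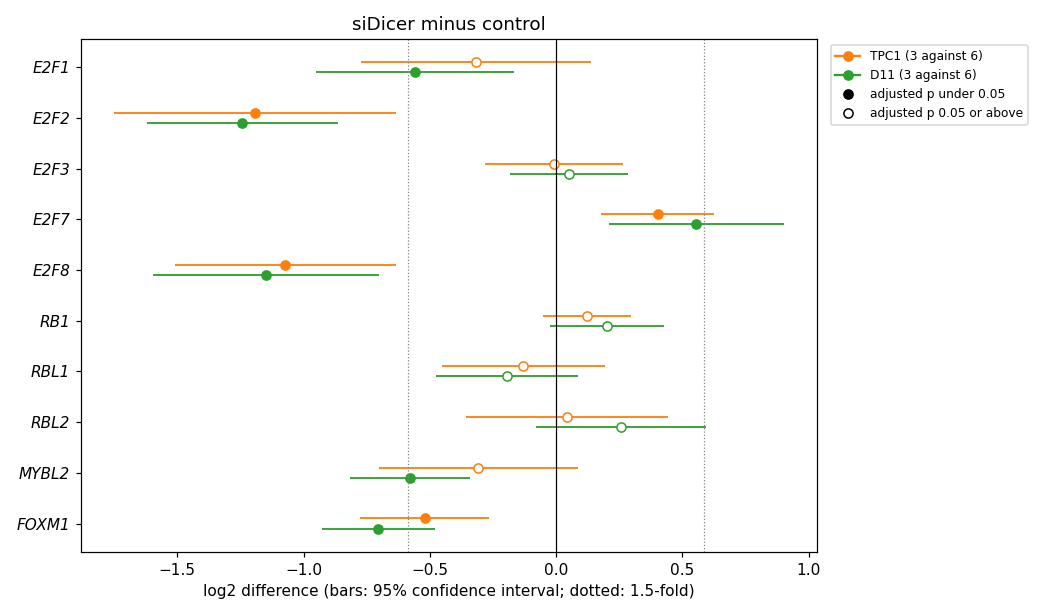
Log2 difference between siDicer (n = 3) and control (n = 6) libraries for the 10 members, with 95% confidence intervals from limma. E2F2 (-1.19 in TPC1, -1.24 in D11) and E2F8 (-1.07, -1.15) lie farthest to the left, E2F7 (0.40, 0.56) lies to the right, and the intervals of RB1, RBL1, RBL2 and E2F3 cross 0 in both lines.

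Groups without overlap were counted as well. In TPC1, 3 members (E2F2, E2F8, FOXM1) were lower in every siDicer library than in every control library and 1 (E2F7) was higher, beside 9.91% and 7.62% of genes. In D11, 4 were lower (these 3 and MYBL2) and 2 higher (E2F7 and RB1), beside the 14.1% and 11% given above.

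Within each siDicer group the libraries did not move evenly. For E2F1, E2F2, E2F8, FOXM1, MYBL2, RBL1 and RB1, replicate 2 was the highest siDicer library in both lines, as it was for DICER1. E2F2 was at 26.7%, 70.2% and 42.7% of the control mean in TPC1 siDicer replicates 1, 2 and 3, and at 31.5%, 54.4% and 42.3% in D11. E2F8 followed at 35.1%, 65.7% and 44.4%, and at 32.3%, 66.5% and 40.7%. E2F7, which lay above the control mean throughout, was at 120%, 151% and 125% in TPC1 and 149%, 153% and 131% in D11, and replicate 2 was its highest library too. With all replicate 2 libraries left out, a choice made after seeing the data, FOXM1 joined E2F2 and E2F8 as called in TPC1, and E2F1 and MYBL2 joined the 3 called in D11. E2F3 was highest in siDicer replicate 1 in both lines, and RBL2 was highest in replicate 3 in D11. Replicate 2 also stood apart in control libraries, in both directions. E2F2 and E2F8 were highest there in D11 NC (473 and 435) and lowest there in TPC1 NT (292 and 366). Libraries of a line with equal replicate numbers deviated together more often than others across the treatments, as described below. That DICER1 and the other members share their highest siDicer library rests on only 3 libraries per line. Whether they are related was not tested.

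**Figure D3:**
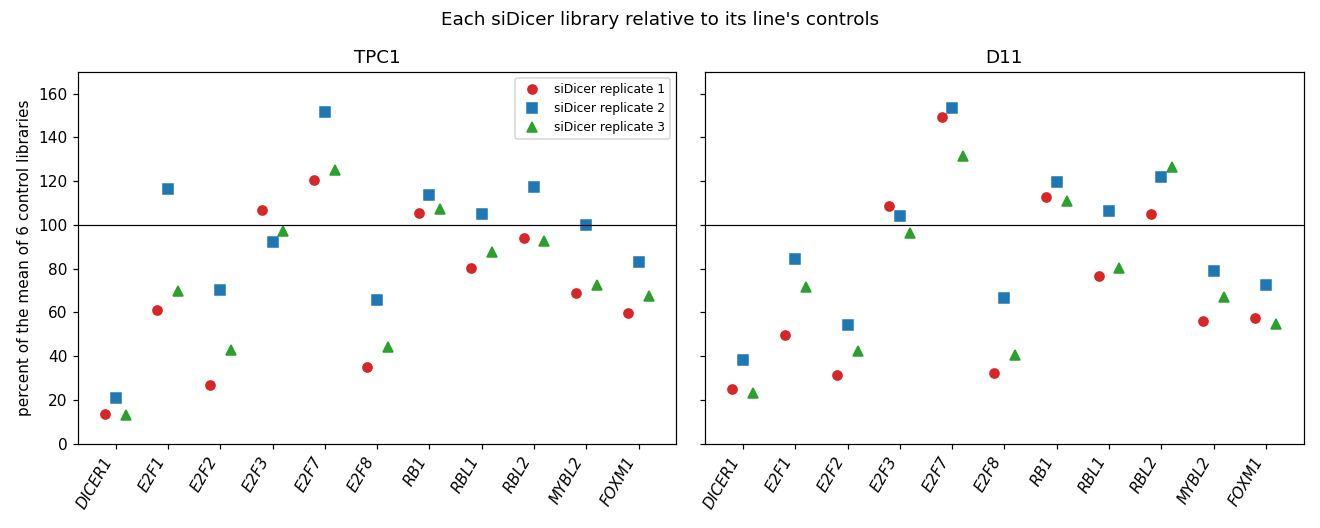
Each siDicer library as a percent of the mean of the 6 control libraries of its line (linear axis from 0; line at 100). Circles, squares and triangles are siDicer replicates 1, 2 and 3. DICER1 is lowest, at 13.1% to 38.1%, E2F2 and E2F8 lie at 26.7% to 70.2%, and E2F7 lies at 120% to 153%.

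The NC and NT libraries, joined above as controls, were compared to see what transfection with a control siRNA does. No member was called in either line, beside 0.111% of 18008 genes in TPC1 and 0.35% of 17992 in D11. The counts of members with an unadjusted p under 0.05 were the same by limma and by voom on recovered reads. They were 0 in TPC1, beside 2003 of 18008 genes by limma, and 1 in D11, beside 2447 of 17992. That member was E2F1, at 706 to 731 in D11 NC against 933 to 1071 in D11 NT, a log2 difference of -0.48 (SE 0.11, limma adjusted p = 0.118) without overlap. In TPC1 the E2F1 difference was -0.34 (SE 0.15, adjusted p = 0.459). E2F8 was at -0.27 in TPC1 (95% confidence interval -0.65 to 0.11) and -0.32 in D11 (-0.66 to 0.02). DICER1 itself was higher in every NC than in every NT library of both lines, by 0.58 in TPC1 and 0.71 in D11 on the log2 scale (adjusted p = 0.133 and 0.153). E2F3 was also higher in each D11 NC library than in each D11 NT library, at 0.22 (adjusted p = 0.421). D11 NC against NT had 10.8% of genes higher and 9.03% lower without overlap.

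The 12 control libraries were used to compare D11 with TPC1, in a fit that also held the transfection, to see whether loss of 1 Dicer1 allele goes with other levels of these regulators. DICER1 was lower in D11 at 62.2% of TPC1 (log2 difference -0.68, SE 0.12, limma adjusted p = 0.00561). No member was called, by limma or by voom, beside 1.02% of 18814 genes. At an unadjusted p under 0.05 there were 0 members by limma, beside 1853 of 18814 genes, and 1, RBL2, by voom, beside 1933 genes. RBL2 had the largest difference, -0.33 (SE 0.16, adjusted p = 0.511), at 637 to 1070 in D11 and 874 to 1612 in TPC1, and its groups overlapped. With the replicate number as a block the RBL2 difference had an adjusted p of 0.0393 while staying under 1.5-fold. The 95% confidence intervals of E2F1, E2F3, E2F7, E2F8, RB1, RBL1, MYBL2 and FOXM1 lay within -0.27 to 0.28. E2F2 was at 0.21 (-0.06 to 0.48). D11 is a single clone, so that clone and genotype cannot be told apart.

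Among siDicer libraries no member was called between the lines by limma or voom, beside 0.287% of 17791 genes called. At an unadjusted p under 0.05 there were 0 of 10 members by each, beside 748 of 17791 genes by limma. MYBL2 was at -0.26 (95% confidence interval -0.64 to 0.13) and E2F2 at 0.16 (-0.63 to 0.95). DICER1 was at 0.19 (-0.36 to 0.74), so that no lower level in D11 was seen among the siDicer libraries. The intervals for E2F2 and E2F8 exceed 1.5-fold in both directions, so that differences of that size are not excluded in either direction. Those for E2F1 (-0.80 to 0.44) and MYBL2 exceed it toward lower levels in D11, and that for DICER1 toward higher levels.

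The siDicer change of D11 was set against that of TPC1 by the interaction term over all 18 libraries. No member passed, and 0% of 19181 genes were called. At an unadjusted p under 0.05 there were 0 members by limma and by voom, beside 133 of 19181 genes by limma. MYBL2 differed most, with a siDicer change 0.27 lower in D11 (that is -0.27, 95% confidence interval -0.73 to 0.19), followed by E2F1 at -0.24 (-0.85 to 0.38) and RBL2 at 0.21 (-0.32 to 0.74). MYBL2 and E2F1 thus passed the test in D11 and not in TPC1, but their changes are not shown to differ between the lines.

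**Figure D4:**
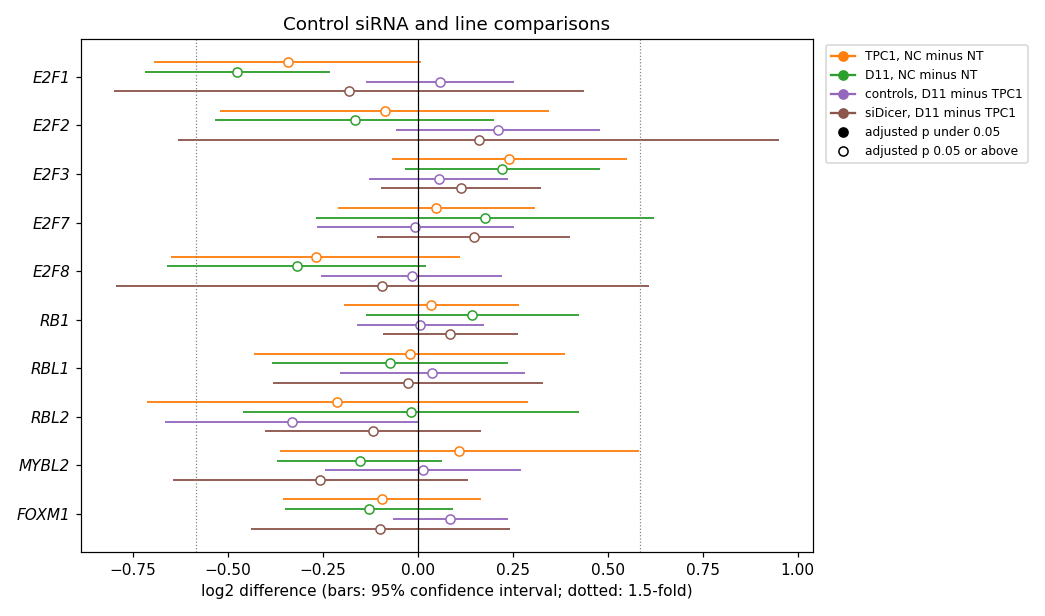
Log2 differences of the 10 members for NC minus NT in each line (n = 3 each) and for D11 minus TPC1 in control libraries (n = 6 each) and siDicer libraries (n = 3 each), with 95% confidence intervals from limma. All points are open, that is with an adjusted p of 0.05 or above, and E2F1 in D11, NC minus NT, lies farthest to the left at -0.48.

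The partners and targets of the members were followed with lists written by hand, with earlier results of these data known, so that their counts are a description. They are to be read beside the shares of all genes given above, called lower in 4.16% (TPC1) and 6.75% (D11) and with an adjusted p under 0.05 and lower in 7.94% and 12.8%. The shares called higher were 3.22% and 5.26%, and those higher with an adjusted p under 0.05 were 5.88% and 9.38%. Of the 5 other E2F and DP subunits, E2F5, a partner of the pocket proteins p107 and p130, fell in both lines, from 885 ± 59.5 (SD, n = 6) to 654 ± 44 (n = 3) in TPC1 (log2 change -0.43, limma adjusted p = 0.0106) and from 932 to 648 in D11 (-0.52, 0.00433). The DP subunit gene TFDP1 fell in D11 (-0.40, adjusted p = 0.00584), with -0.34 in TPC1 (0.119). TFDP2, the other DP subunit gene, rose in D11 (0.61, adjusted p = 0.00247) and was the sole call of this list, with 0.38 in TPC1 (0.0778). The list's median was -0.01 in TPC1 and -0.06 in D11.

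Of the 5 MuvB core genes, LIN54, the DNA-binding subunit, fell in TPC1 (-0.64, limma adjusted p = 0.0150) and in D11 (-0.55, 0.0207), and was called in TPC1. LIN9 fell in D11 (-0.41, adjusted p = 0.0321), with -0.35 in TPC1 (0.0676). RBBP4, a histone chaperone shared with other complexes, had 0.14 and 0.17 and did not pass. The median of the list was -0.19 in TPC1 and -0.02 in D11.

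Among 15 G1 cyclins, CDKs and CDK inhibitors, 14 were tested (CCND2 was too low). In D11 3 were called higher and 2 lower. In TPC1 0 were called by limma, and voom called 1. At an unadjusted p under 0.05 by limma there were 6 in TPC1, beside 5629 of 18475 genes tested. By adjusted p alone, 2 rose in TPC1, and 5 rose and 4 fell in D11. The 2 that rose in TPC1, named after their values were seen, rose in D11 as well. CCND1, the cyclin D1 gene, rose by 0.50 in each line (adjusted p = 0.0238 in TPC1 and 0.00799 in D11). CDKN1B, which encodes the CDK inhibitor p27, rose by 0.43 in TPC1 (adjusted p = 0.0423) and by 0.52 in D11 (0.00694). The CCND1 and CDKN1B changes are under 1.5-fold, and neither gene was called. The study reports cyclin D1 as unchanged, by RNA sequencing and by Western blot. It reports no change of p27, by RNA sequencing and by RT-qPCR. CDKN1C, which encodes the CDK inhibitor p57, was at 173 ± 75.1 in D11 control (SD, n = 6) and at 500 ± 147 in siDicer (n = 3), a log2 rise of 1.58 (SE 0.30, limma adjusted p = 0.00339). In TPC1 it had 1.55 (SE 0.47, adjusted p = 0.0509). CCNE2, a cyclin that drives S phase entry and a known E2F target, fell in D11 (-0.84, adjusted p = 0.00108), with -0.69 in TPC1 (0.102). CCNE1 had 0.22 in TPC1 and 0.03 in D11 and did not pass (adjusted p = 0.692 and 0.923). The study reports cyclin E as lower, by RNA sequencing and by Western blot, and does not say which cyclin E gene is meant. CDKN2C fell in D11 (-0.69, adjusted p = 0.00692), with -0.40 in TPC1. The other 2 called higher in D11, named after their values were seen, were CDK6 (0.93, adjusted p = 0.0264), a kinase that phosphorylates RB1, and CDKN2B (0.80, adjusted p = 0.00785), an inhibitor of that kinase. CDK6 was also higher in D11 NC than in D11 NT (1.00, SE 0.14, adjusted p = 0.0321), the 1 call of this list between NC and NT, and had 1.14 in TPC1 (adjusted p = 0.241).

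Of 32 G1/S targets, genes of replication that E2F controls, 31 were below 0 in each line. In D11 28 fell and 18 of these were called, and in TPC1 9 fell and 6 were called, with 0 higher in either. The medians were -0.41 in TPC1 and -0.62 in D11. RRM2, the small subunit of ribonucleotide reductase, fell in D11 (-0.94, adjusted p = 0.000649) and had -0.77 in TPC1 (0.0539). POLA2, a subunit of DNA polymerase alpha, fell in D11 (-0.77, adjusted p = 0.00103) and had -0.53 in TPC1 (0.0629). The gene above 0, named after its values were seen, was the phosphatase gene CDC25A in both lines (0.45 in TPC1 and 0.25 in D11, adjusted p = 0.306 and 0.270). The TPC1 count depended on the control, with 1 call against NT alone and 3 against NC alone, and in D11 it was 9 against NC alone. Between D11 NC and NT, 29 of the 32 were below 0 with a median of -0.23, and none was called by limma or voom. In that comparison 11 had an unadjusted p under 0.05, beside 2447 of 17992 genes tested. Between TPC1 NC and NT, 18 were below 0 with a median of -0.0474, and 2 had an unadjusted p under 0.05, beside 2003 of 18008 genes. Between D11 and TPC1 controls, 31 were above 0 with a median of 0.14, and 6 had an unadjusted p under 0.05, beside 1853 of 18814 genes. None was called in these comparisons either, by limma or voom.

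Of 32 G2/M targets, genes of mitosis bound by MuvB with MYBL2 and FOXM1, all 32 were below 0 in each line. In D11 31 fell and 26 were called, and in TPC1 29 fell and 19 were called. The medians were -0.63 in TPC1 and -0.80 in D11. AURKA, a kinase of the spindle poles, fell from 3188 ± 249 to 1479 ± 185 in D11 (log2 change -1.11, limma adjusted p = 6.19e-05) and by 0.90 in TPC1 (adjusted p = 0.00267). KIF2C, a microtubule depolymerase of the centromere, fell by 0.99 in D11 and 0.82 in TPC1, and NEK2, a kinase of centrosome separation, by 0.84 and 0.76 (adjusted p = 0.000124, 0.00335, 0.000184 and 0.00105). Against NT alone 11 of the 32 were called in TPC1.

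**Figure D5:**
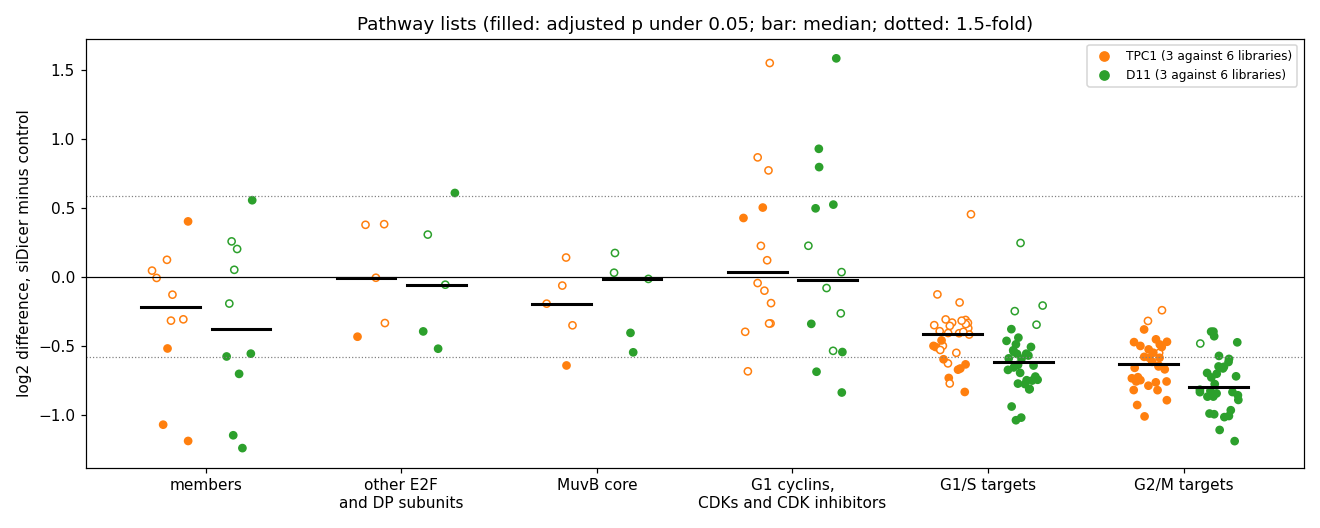
Log2 difference between siDicer (n = 3) and control (n = 6) libraries for each gene of the member list and the 5 pathway lists, in TPC1 and D11. Each point is a gene, filled where adjusted p is under 0.05, bars are list medians and dotted lines 1.5-fold. The G1/S medians are -0.41 and -0.62 and the G2/M medians -0.63 and -0.80, while the medians of the 3 short lists lie between -0.19 and 0.04.

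Finally, the genes with a mean of at least 100 (12508 genes) were ranked by how near their log2 profile over the 18 libraries, centred on its mean, lay to that of each member, as the root mean square difference over libraries. This is a description over libraries that share groups and replicates. The nearest profile to E2F2 was another member, E2F8 (0.19 log2 units), with SAPCD2 (0.20) and MELK (0.21) next. MELK, a kinase of dividing cells, was also the nearest to E2F8 (0.15), ahead of FAM192A (0.15) and CDKN3 (0.15). FOXM1 lay nearest to PRC1 (0.07), ANP32E (0.07) and RRM1 (0.08), of which PRC1 is in the G2/M list and RRM1 in the G1/S list. MYBL2 was nearest to KIFC1 (0.09), CDK2 (0.10) and ASF1B (0.11), and RBL1 lay near the cohesin gene SMC1A (0.09) and CKAP2L (0.09). E2F1 had EMP2 (0.11), DUT (0.13) and PIH1D1 (0.14) as its nearest genes. E2F7 had MAP3K3 (0.13), NEMP1 (0.14) and LRCH1 (0.14), and RBL2 had DDHD2, DOCK9 and ACSL4 (0.11 to 0.12). E2F3 and RB1 varied least over the libraries (SD 0.15 and 0.13 log2 units), and their nearest genes, ZNF326, DDX3X and CCAR1 for E2F3 and MT-ND5, POLH and FAM35A for RB1, were near at 0.07 to 0.08.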

How the data were processed

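Poly-A messenger RNA of 18 libraries was sequenced, 3 for each of 6 groups, from 2 cell lines left non-transfected or given control or Dicer1 siRNA. According to the methods and the submitters' processing notes, the authors aligned reads to GRCh38 with STAR 2.5.3a, counted reads per gene of an Ensembl annotation with HTSeq 0.9.1 and brought every library to 20 M aligned reads. The deposited values are therefore a normalised score in whole numbers, not raw reads: columns sum to 20010707 to 20018484. The value of 1 read, 0.861 to 1.77, was found from the steps between low values and gave a depth of 11.3 to 23.2 M reads. In 16 libraries at least 99.9% of low values were whole reads; in the other 2, 1 read is worth less than 1 and reads came back approximately.

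The study names a count test. Because the values are scaled, limma 3.58.1 in R 4.3.3 was used here (lmFit, eBayes with trend) on log2(value + 1), keeping genes that reached 10 in 3 or more libraries of a comparison, with Benjamini-Hochberg adjustment over all of them. On the log2(value + 1) scale, changes of weakly expressed genes come out too small. A gene was called at a fold change of 1.5 or more with an adjusted p below 0.05. There were 7 comparisons: siDicer with the joined controls and NC with NT, both within each line, the lines with each other in control and in siDicer libraries, and the interaction of line and siDicer. The code was tested on simulated data.

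Groups came from the sample descriptions; titles name another group for 12 of 18 samples, and DICER1 follows the descriptions. All 10 members were to be named, and of each other list the 3 genes with the smallest adjusted p in D11 siDicer against control, and for each member the 3 nearest profiles. A few genes that these rules or the marker lists select are not reported here. The members and lists were chosen with earlier results of these data known.

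Libraries of a line with equal replicate numbers deviated together more often than others, but neither set of genes gave this for every pair of both lines. Their deviations from group means correlated over 0.1 in 9 of 9 pairs in TPC1 among genes with a mean of at least 100 (8 of 9 in D11) and in 9 of 9 pairs in D11 under the filter of the tests (7 of 9 in TPC1, lowest 0.0861). Of 18 pairs with different numbers, 4 passed 0.1 in each line in the first set, and 3 in the second, with correlations down to -0.73. Between the lines, 23 of 27 pairs with equal numbers passed 0.1 in the first set, against 11 of 54 with different numbers. In the second set these were 22 of 27 and 4 of 54. The meaning of a number is not given in the labels. The main tests, within and between the lines, leave out this sharing between libraries of equal number. The block was kept as an alternative, whose effect the closing section gives. Alternatives were TMM and RLE scaling, other filters and pseudocounts, no fold minimum, a replicate block, 1 fit of all 18 libraries, voom on recovered reads, NT or NC alone as control, each library left out, and, chosen after seeing the data, all replicate 2 libraries left out. Gene positions and 3′ UTRs are from GENCODE release 44, and promoters and miRNAs from RefSeq, GRCh38.p14. Python 3.11.15 with pandas 2.3.3 and matplotlib 3.10.9 was used for tables and figures.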

Additional observations from a re-analysis of the deposited data

Results flagged for a closer look

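In 22 groups of 6 control libraries (10 members and DICER1 in 2 lines), the highest and the lowest library were set against the others by Dixon's criterion, which chance passes in about 1 group of 20. TPC1 NT replicate 2 stood apart in 2 of them. RB1 was at 1499 there, below the next lowest control library at 1710, with a gap of 0.674 of the range. RBL2 was at 1612 there, above the next highest at 1143, with a gap of 0.636 of the range. This library was also the lowest TPC1 control for E2F2 (292), E2F3 (1103), E2F7 (1582), RBL1 (602), MYBL2 (2294) and FOXM1 (3072). Its counts differed from those of NT replicates 1 and 3 by a chi-square of 40.9 and 24.4 per gene, against 7.25 between those 2 libraries. Such gaps were not particular to this library. TPC1 siDicer replicate 2 was at 37.3 and 29.5 against 4.35, and TPC1 NC replicate 2 at 19.4 and 16.0 against 4.54. In D11 NT, replicate 1 was at 35.1 and 19.5 against 6.09. Without TPC1 NT replicate 2 the RBL2 change in TPC1 siDicer was 0.17 in place of 0.04. For no member did the test of the interaction pass, so that siDicer changes are not shown to differ between the lines.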

How the results depend on the processing

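Over the alternatives, the calls of E2F2, E2F8 and FOXM1 in D11 held in all of them. The count of members called in TPC1 siDicer against control, 2, became 4 with no fold minimum, 1 against NT alone and 1 against NC alone, and ran from 0 (without siDicer replicate 1 or 3) to 4 (without siDicer replicate 2) over libraries left out. The D11 count, 3, became 6 with no fold minimum, 6 against NT alone and 5 with all replicate 2 libraries left out. It ran from 3 to 6 (without NC replicate 1) over libraries left out. Calls over all genes moved as well. In TPC1 they went from 1363 to 427 without siDicer replicate 3 and to 2094 without siDicer replicate 2. In D11 they went from 2212 to 4086 with no fold minimum and to 2464 without NC replicate 1. Against NT alone in D11 they were 1518 higher and 1537 lower, in place of 969 and 1243. With all replicate 2 libraries left out in D11 they were fewer, at 784 and 1100. The member counts are to be read beside these. The member counts of NC against NT in each line, of D11 against TPC1 in control and siDicer libraries and of the interaction were 0 with every library left out. The sign of E2F3 turned in TPC1 with TMM (0.0565) and RLE scaling (0.0363) and against NT alone (0.11), and in D11 against NC alone (-0.0605), and over libraries left out it ran from -0.0789 to 0.0428 in TPC1. The sign of RBL2 in TPC1 turned against NT alone (-0.0613) and ran from -0.0664 (without siDicer replicate 2) to 0.17 (without NT replicate 2). E2F2 after siDicer, D11 minus TPC1, ran from -0.18 to 0.51, and E2F1 in the interaction from -0.43 to 0.0387. The cause was not tested.

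The list counts moved as follows. G1/S targets called lower in TPC1, 6, became 3 with TMM scaling, 1 against NT alone and 3 against NC alone, and in D11, 18, became 9 against NC alone. G2/M targets in TPC1, 19, became 11 against NT alone. The MuvB call in TPC1, 1, became 0 with TMM scaling and against NT or NC alone. G1 cyclins, CDKs and inhibitors in TPC1, 0, became 1 with TMM, with RLE, against NC alone and with the replicate block, and in D11, 5, became 8 against NT alone and 3 against NC alone. The call among other E2F and DP subunits in D11, 1, became 0 against NT alone.

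The replicate block changed no call of a member. Over all genes it moved the calls of NC against NT from 20 to 565 in TPC1 and from 63 to 315 in D11, those of D11 against TPC1 from 191 to 385 in controls and from 51 to 123 after siDicer. Calls over all genes in TPC1 siDicer ran from 427 (without siDicer replicate 3) to 2555 (without all replicate 2 libraries) around 1363, and in D11 from 1374 (without siDicer replicate 3) to 4086 (no fold minimum) around 2212. Depth limits only the lowest values: 3 reads are worth at most 5.32, far below every member.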
